A study of Macaca mulatta with 56 samples.

Results

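Translation initiation and elongation factors are the proteins that bring ribosomes to the start codon of an mRNA and carry them along it. The genes described here were all rows of the deposited expression table whose macaque gene symbol begins with EIF1 to EIF6, EEF1 or EEF2. There were 61 such genes among 17807 Ensembl identifiers, each with a single identifier. All 61 were read in the amygdala. In the hippocampus and both cortical regions a gene was read only where its mean level lay within 2 log2 units of its mean level in amygdala, which held for 50 genes (82.0%), against 75.9% of all identifiers.

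The RNA came from 14 old female rhesus macaques aged 19.4 to 23.2 years, each sampled in the 4 regions, which gave 56 bulk mRNA libraries. HT animals (n = 7) had their ovaries and uterus removed and carried estradiol capsules that gave 82.1 pg/mL of serum estradiol. OvH animals (n = 7) had the same surgery and empty capsules, with 6.6 pg/mL. Both groups ate a Western-style diet with 36% of calories from fat, begun about 6 weeks before surgery, and tissue was taken after a study of 30 months, while serum estradiol is given as held for 32 months on average. Surgery, diet and age range were thus shared by all animals, and neither ovary-intact nor chow-fed animals were compared.

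Initiation begins when eIF2 delivers the initiator tRNA to the small ribosomal subunit, which carries eIF1, eIF1A, eIF3 and eIF5, while the eIF4 factors bind the mRNA cap and unwind its leader. The eIF2 kinases lower initiation under stress by turning eIF2 into an inhibitor of its exchange factor eIF2B. In elongation, eEF1A brings aminoacyl-tRNAs to the ribosome, the eEF1B subunits recharge eEF1A with GTP, and eEF2 moves the ribosome by a codon. In neurons these steps also run in dendrites, where protein synthesis is needed for lasting synaptic change.

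The libraries held 34.6 to 93.3 M reads (mega-reads; median 59.9). All values below are the authors' upper-quartile normalized read counts unless a log2 difference is named. They are not divided by gene length, so levels are compared between libraries and not between genes. Levels in the amygdala columns did not correspond gene by gene to those in the columns of the other regions. The Spearman correlation of mean levels across genes was 0.535 to 0.547 between amygdala and each other region, against 0.985 between hippocampus and prefrontal cortex. The 11 genes that were read only in amygdala for this reason were EIF1, EIF2AK4, EIF3D, EIF3E, EIF3G, EIF3J, EIF3M, EIF4E, EIF5A, EIF5A2 and EIF6. The nearest gene outside the limit was EIF3D, whose mean log2 level in the other regions minus amygdala was -2.01, and the nearest inside were EEF1B2 at -1.35 and EEF1A1 at -1.13. All 15 neuronal and all 17 myelin markers passed the minimum level in amygdala, and the 14 neuronal and 12 myelin markers with matching levels passed it in each other region.

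One member showed that some libraries go against their labels. EIF1AY is the Y-linked copy of the start-codon scanning factor EIF1A, and all 14 animals are labelled female. The library labelled hippocampus of OvH animal 43 had 1799 EIF1AY counts, and the one labelled hippocampus of OvH animal 30 had 1277. The summed level of 8 Y-linked genes, EIF1AY among them, was 29729 and 21433 in these libraries. The library labelled amygdala of OvH animal 32 had 35.0 EIF1AY counts and a Y-linked sum of 340, and the sum was at most 19.9 in the other 53 libraries. In a comparison of the genes that differ most between animals, the hippocampus library of animal 30 was also the 1 library of 56 that correlated best with the libraries of another animal. The libraries labelled hippocampus of animal 43 and amygdala of animal 32 correlated best with those of their own animals. Beyond this comparison, which animals these libraries came from was not tested. The main results that rest on hippocampus are therefore also given without animals 30 and 43. The spread between animals and the share with an unadjusted p under 0.05 are given only with them.

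**Figure D1:**
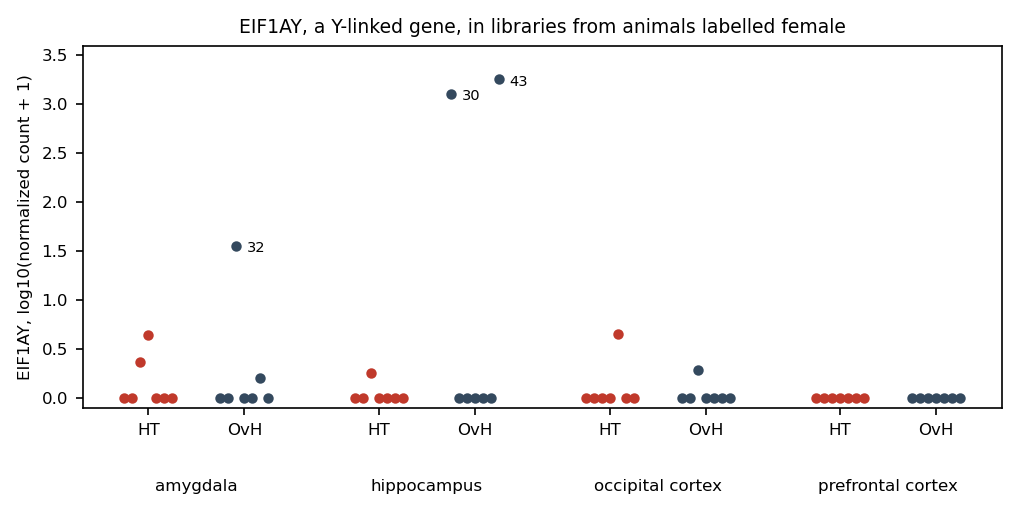
EIF1AY in each of the 56 libraries, as log10 of the normalized count plus 1, by region and treatment with HT left of OvH; animal numbers mark values above 10. The hippocampus libraries labelled 30 and 43 stand at 1277 and 1799 counts, and amygdala library 32 at 35.0.

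Estradiol replacement was compared with empty capsules first in the amygdala. There 5 of 60 translation factors were called higher in HT animals (8.33%), against 6.16% of 16129 genes tested, and 1 was called lower (1.67%), against 0.732%. A gene was called when its Benjamini-Hochberg adjusted p from limma, over all genes tested in the region, was under 0.05. EIF1AY was below the minimum mean of 10 counts and was not tested. The shares of called members were close to those of all genes, and so were the shares with an unadjusted p under 0.05, 30.0% of members (18 genes) and 21.5% of all genes. The median log2 difference was 0.10 over the members and 0.01 over all genes. In bulk tissue, fewer cells of a type and less RNA per cell cannot be told apart.

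**Figure D2:**
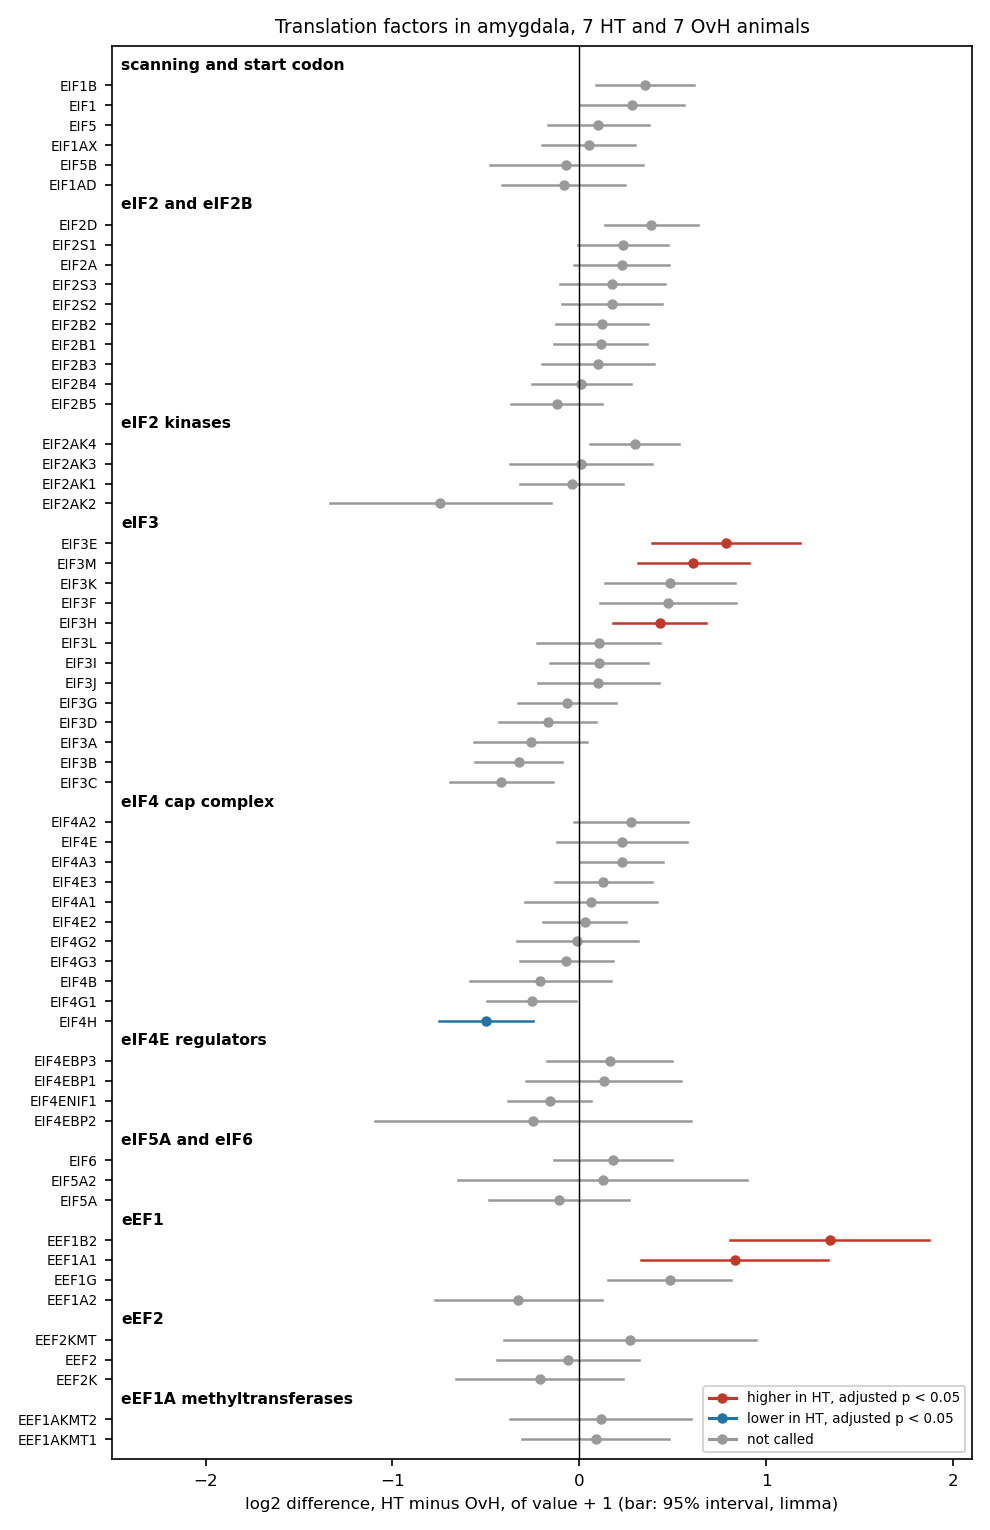
The log2 difference between HT and OvH animals in amygdala for 60 translation factors, grouped by role, with 95% intervals from limma. EEF1B2, EEF1A1, EIF3E, EIF3M and EIF3H are called higher, EIF4H is called lower, and the subunits of eIF3 fall on both sides of 0.

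The largest difference was in the elongation factor eEF1. EEF1B2, the eEF1B subunit that exchanges GDP for GTP on eEF1A, had a lowest, median and highest level of 32138, 85026 and 111050 in HT animals, against 19177, 31858 and 45047 in OvH animals. In the HT group 6 of 7 animals were above every OvH animal, and only HT animal 39 lay within the OvH range. The log2 difference was 1.34 ± 0.25 (SE), with a limma adjusted p of 0.00783. EEF1A1, the main eEF1A of most tissues, had 315580, 621050 and 783480 in HT animals, against 208390, 308510 and 499580 in OvH animals. The groups overlapped, 5 of the 7 HT animals being higher than all OvH animals, and the log2 difference was 0.83 ± 0.24 (limma adjusted p = 0.0433). Reads of EEF1A1 can be shared with its many processed copies in primate genomes, so its level is uncertain.

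The other eEF1 genes were not called. EEF1G, the scaffold subunit of eEF1B, had 50689, 59891 and 87373 in HT animals and 37241, 44845 and 59127 in OvH animals, a log2 difference of 0.48 ± 0.16 (limma adjusted p = 0.0749). EEF1A2, the eEF1A of mature neurons and muscle, had 20087, 51349 and 58321 in HT animals, against 38459, 59510 and 67460 in OvH animals. Its log2 difference was -0.33 ± 0.21 (limma adjusted p = 0.405), and no HT animal was above the OvH median. The ratio of EEF1A1 to EEF1A2 counts within a library, in which the library's scaling cancels, was 14.7 ± 11.1 in HT animals and 6.14 ± 3.26 in OvH animals (SD, n = 7 each). All 7 HT animals were above the OvH median, and a two-sided exact permutation test of the log2 ratio gave p = 0.00991 (0.0396 adjusted over the 4 regions). This ratio was chosen after the values of both genes had been seen. In the other regions the same exact permutation test gave p = 0.483 to 0.751, and in hippocampus without animals 30 and 43 p = 0.447.

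The eIF3 complex, the scaffold that gathers initiation factors on the small subunit, held 3 of the 5 genes called higher. EIF3E had 15061, 27227 and 41162 in HT animals, against 11772, 15697 and 18716 in OvH animals. All HT animals except number 39 were above every OvH animal, and the log2 difference was 0.78 ± 0.19 (limma adjusted p = 0.0191). EIF3M had 10671, 16152 and 19922 in HT animals, against 8478, 9457 and 11829 in OvH animals. Here 5 of 7 HT animals were above the OvH range, with a log2 difference of 0.61 ± 0.14 (limma adjusted p = 0.0157). EIF3H, an eIF3 subunit with an MPN domain, had 14835, 20168 and 21090 in HT animals and 11926, 13361 and 16575 in OvH animals. The groups overlapped more, 4 of the 7 HT animals being above the OvH range, and the log2 difference was 0.43 ± 0.12 (limma adjusted p = 0.0363).

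Of the 13 measured eIF3 subunits, 8 had a positive and 5 a negative log2 difference. With every library scaled to the same total, EIF3I, EIF3J and EIF3L also turned negative (-0.11 each), which made 5 positive and 8 negative. The log2 differences of EIF3K, EIF3F, EIF3L, EIF3I and EIF3J were 0.49, 0.47, 0.10, 0.10 and 0.10, and none of these genes was called. EIF3C, a subunit of the core that is conserved in budding yeast, had 7025, 9926 and 10839 in HT animals, against 10440, 12600 and 17623 in OvH animals. Every HT animal was below the OvH median, and the log2 difference of -0.42 ± 0.13 missed the threshold (limma adjusted p = 0.066). EIF3B, another core subunit, with an RNA recognition motif, had 2895, 3222 and 4078 in HT animals and 3574, 4028 and 4748 in OvH animals. Its log2 difference was -0.32 ± 0.11 (limma adjusted p = 0.0906), and those of EIF3A, EIF3D and EIF3G were -0.26, -0.17 and -0.07. In human EIF3C has a near-identical copy, so its counts here may be split or shared.

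The 1 gene called lower, EIF4H, encodes a helper of the helicase eIF4A that unwinds mRNA leaders. It had 11973, 14829 and 18906 in HT animals, against 17708, 22124 and 24741 in OvH animals. In the HT group 6 of 7 animals were below every OvH animal, HT animal 39 being the exception, and the log2 difference was -0.50 ± 0.12 (limma adjusted p = 0.0187). The other 10 genes of the cap group were not called. Their log2 differences ran up to 0.28 ± 0.15 for the helicase gene EIF4A2, with EIF4E at 0.23, EIF4A1 at 0.06, EIF4B at -0.21 and the scaffold gene EIF4G1 at -0.26. All 4 regulators of eIF4E were uncalled, from 0.16 ± 0.16 for EIF4EBP3 to -0.25 ± 0.40 for EIF4EBP2, both repressors that bind eIF4E. In the human genome EIF4EBP3 shares a read-through transcript with its neighbour, so its counts here are uncertain.

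Of the 10 genes of the eIF2 and eIF2B group, 0 were called by limma in amygdala and 1, EIF2D, had an unadjusted p under 0.05, and their log2 differences ran from -0.12 ± 0.11 for EIF2B5, the catalytic subunit of eIF2B, to 0.38 ± 0.12 for EIF2D. EIF2D, which can place initiator tRNA on the ribosome without eIF2, had 3541, 3734.5 and 5045 in HT animals, against 2489, 3010.1 and 3489 in OvH animals. These groups did not overlap under the authors' scaling, although the limma adjusted p was 0.0602. With every library scaled to the same total, the log2 difference of EIF2D was 0.17 (limma adjusted p = 0.325). DESeq2 called EIF2D higher and edgeR did not. The eIF2 kinases were spread widely. EIF2AK2, or PKR, the interferon-induced kinase that senses double-stranded RNA, had 250.4, 439 and 642 in HT animals and 328, 842 and 1025 in OvH animals. No HT animal reached the OvH median, and the log2 difference was -0.74 ± 0.28 (limma adjusted p = 0.127). EIF2AK4, or GCN2, the kinase that senses uncharged tRNAs, stood at 0.30 ± 0.11 (limma adjusted p = 0.131), and the kinases EIF2AK1 and EIF2AK3 at -0.04 and 0.01.

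No gene was called among the remaining groups. Of the scanning and start-codon genes, EIF1B, a paralogue of EIF1, had 10516, 11180 and 16156 in HT animals, against 8459, 9031.5 and 12676 in OvH animals. All 7 HT animals were above the OvH median, with a log2 difference of 0.35 ± 0.12 (limma adjusted p = 0.108), while EIF1AD was lowest in that group at -0.08 ± 0.16. EEF2 itself, the translocase, differed by -0.06 ± 0.18, its inhibitory kinase gene EEF2K by -0.21 ± 0.21 and its methyltransferase gene EEF2KMT by 0.27 ± 0.32. The log2 differences of EIF6, which keeps the ribosomal subunits apart, and of EIF5A, which relieves stalled ribosomes, were 0.18 ± 0.15 and -0.11 ± 0.18. Those of the eEF1A methyltransferase genes EEF1AKMT2 and EEF1AKMT1 were 0.11 ± 0.23 and 0.09 ± 0.19.

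**Figure D3:**
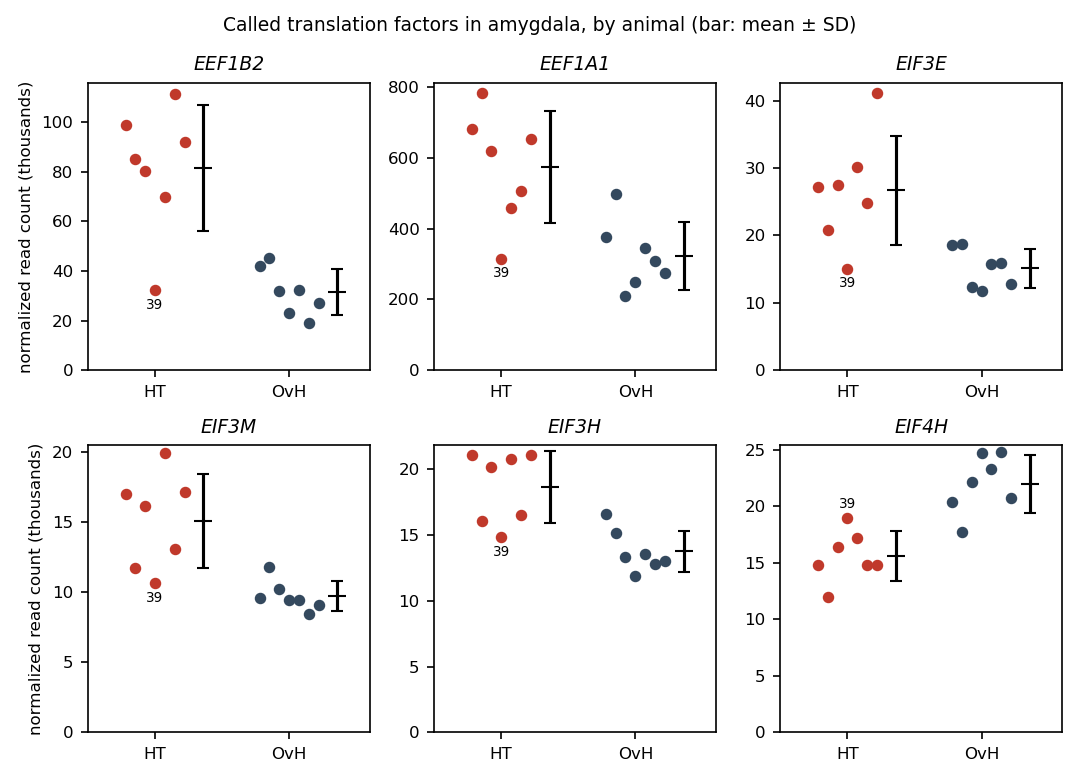
Normalized read counts of the 6 called translation factors in amygdala, 1 point per animal, HT left of OvH, with the mean and SD (n = 7 each) beside the points; HT animal 39 is numbered. For EEF1B2 the HT animals reach 111050 and the OvH animals 45047, and animal 39 lies at 32138.

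Animal 39 had the lowest HT level of all 5 genes called higher and the highest of EIF4H. Without it 9 members were called higher and 2 lower, against 8.38% and 1.4% of all genes. The counts were the same without OvH animal 32 (against 10.1% and 4.54% of all genes), whose amygdala library was the highest of its group for 26 and the lowest for 17 of 61 members. Without OvH animal 33, 2 were called higher (EEF1B2 and EIF3M; against 3.31% of all genes) and 0 lower (against 0.0868%). Without animals 34, 35, 36, 38, 40, 42 or 43 in turn, 3 were called higher (EEF1B2, EIF3E and EIF3M). Leaving out animals 30 or 41 gave 2 lower. The share of all genes called also moved with the animal left out, so these counts are not results about the members alone. EEF1A1 stayed called in 3 and EIF3H in 6 of these 14 fits. EEF1B2 was called in all 24 alternative fits, and its adjusted p ran from 1.1e-05 to 0.0275.

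Several other values moved with treatment in amygdala. Genes of cytosolic ribosomal proteins were called higher in HT animals for 64 of 77 identifiers (median log2 difference 1.23), and their summed level had a lowest, median and highest of 3640500, 8220900 and 12171000 in HT animals, against 2349700, 3257200 and 4389000 in OvH animals. The lowest HT value was that of animal 39. Of the 8 measured members whose mRNAs are known in mammals to carry a 5′ terminal oligopyrimidine tract, the element also found in ribosomal protein mRNAs, 4 were called higher (EEF1A1, EEF1B2, EIF3E and EIF3H), against 6.16% of all genes; the list was chosen with results of these data known and is no independent evidence. The other 4 were EEF1G, EEF2, EIF3F and EIF4B, and the median log2 difference of the 8 was 0.48. Myelin markers were called higher for 3 of 17 (median 0.41), with summed levels of 820980 to 1685500 in HT animals and 388710 to 1329900 in OvH animals. Neuronal markers were called lower for 2 of 15 (median -0.32), with sums of 558320 to 799670 in HT animals and 579630 to 913900 in OvH animals. Astrocyte and microglia markers were called higher for 1 of 10 each (medians -0.07 and 0.15). By limma 0 of 5 meningeal markers were called, though all 5 were positive with a median of 0.63. Likewise 0 of 10 endothelial markers were called, 8 being negative with a median of -0.29, and 0 of 8 choroid plexus markers, with a median of -0.24. No marker in these lists was at 0 in every library. With the mean log2 level of the myelin markers as a covariate, EEF1B2, EIF3E, EIF3H and EIF3M were called higher and no member lower. EIF4H was then at -0.46 (limma adjusted p = 0.0882). The part of the other shifts in the translation factor results was not tested.

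The sum of all normalized values was also higher in amygdala of HT animals, 71.1 ± 4.46 M against 61.4 ± 4.08 M in OvH animals (SD, n = 7 each, exact permutation p = 0.00291). When every library was scaled to the same total instead, the median of all genes shifted to -0.20 and that of the members to -0.11. Then 1 member was called higher (EEF1B2; 1.67%, against 3.84% of all genes) and 5 lower (EIF3B, EIF3C, EIF3D, EIF4G1 and EIF4H; 8.33%, against 6.31%). The sign changed to negative for 21 of the 39 members with a positive difference, among them 6 of the eIF2 and eIF2B group, EIF4A1 (-0.15) and EIF6 (-0.035). The signs of all 6 called genes stayed as they were, with log2 differences of 1.12 for EEF1B2, 0.62 for EEF1A1, 0.57 for EIF3E, 0.40 for EIF3M, 0.22 for EIF3H and -0.71 for EIF4H. With edgeR on whole reads, 3 members were called in each direction and the median of all genes was -0.10. Scaling to equal totals moves all genes of a library by the same factor. Differences relative to the median of all genes therefore stay nearly the same by construction, here -0.43 for EIF3C and 1.33 for EEF1B2.

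Other genes of translation were also read in amygdala, where 6.16% of all genes were called higher and 0.732% lower. Of 26 regulators outside the EIF and EEF names, 3 (11.5%) were higher in HT animals: RACK1, the ribosome scaffold, by 0.80 ± 0.19 (limma adjusted p = 0.0193), MCTS1, a partner of DENR in reinitiation, by 0.70 ± 0.18 (0.0264), and TPT1, whose mRNA carries a terminal oligopyrimidine tract, by 0.65 ± 0.18 (0.0408). None was lower, and the median log2 difference was -0.08. Downstream of the eIF2 kinases, 1 of 11 genes was called (9.09%): DDIT3, the stress transcription factor CHOP. It had 4676 ± 1038 in HT animals and 2581 ± 587 in OvH animals (SD, n = 7 each), a log2 difference of 0.86 ± 0.17 (limma adjusted p = 0.00854). In sign, 6 of the 11 were positive and 5 negative, with a median log2 difference of 0.07. Of 22 cytosolic aminoacyl-tRNA synthetase genes, which charge tRNAs, 2 (9.09%) were lower and 7 had an unadjusted p under 0.05 in that direction. HARS1 and RARS1 were the 2, with log2 differences of -0.59 ± 0.14 and -0.59 ± 0.16 (limma adjusted p = 0.0197 and 0.0305), and the median was -0.19. Of 11 mitochondrial translation factors 0 were called by limma, 1 had an unadjusted p under 0.05, and their median was -0.04.

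Outside the amygdala no translation factor was called between HT and OvH animals by limma: 0 of 50 in hippocampus and 0 of 49 in each of occipital and prefrontal cortex, against 0.0% of all genes in each. At an unadjusted p under 0.05 there was 1 member in hippocampus (2% against 2.05% of all genes), 0 in occipital cortex (against 1.88%) and 4 in prefrontal cortex (8.16% against 3.7%). edgeR and DESeq2 called 0 members in each. EEF1B2, the gene with the largest difference in amygdala, had log2 differences of 0.02 (95% interval -0.70 to 0.75) in hippocampus, 0.10 (-0.51 to 0.71) in the occipital and 0.01 (-0.24 to 0.26) in the prefrontal cortex. For EEF1A1 they were 0.04 (-0.54 to 0.62), -0.01 (-0.49 to 0.48) and -0.18 (-0.55 to 0.18). For EIF4H they were 0.04 (-0.22 to 0.30), -0.11 (-0.37 to 0.15) and 0.04 (-0.14 to 0.22). Without animals 30 and 43 the hippocampus values were 0.03 (-0.65 to 0.71) for EEF1B2, 0.01 (-0.53 to 0.55) for EEF1A1 and 0.00016 (-0.25 to 0.25) for EIF4H.

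**Figure D4:**
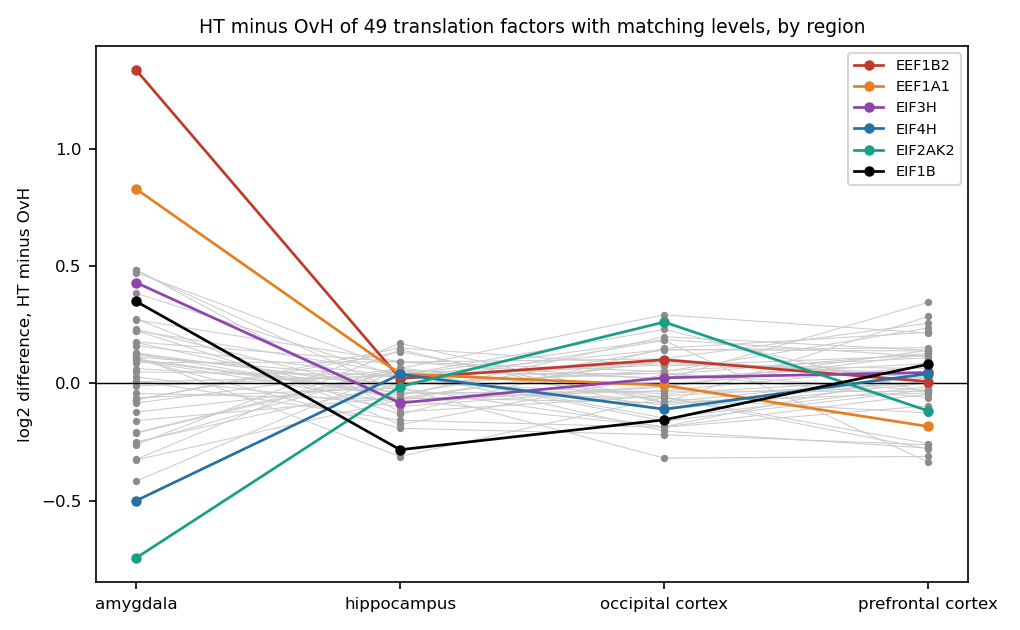
The log2 difference between HT and OvH animals in each region for 49 translation factors with matching levels (EIF1AY is left out), 1 line per gene. The lines spread from -0.74 to 1.34 in amygdala. Of the coloured genes, EEF1B2 and EIF4H lie nearer 0 in the other 3 regions, while EIF1B lies below 0 in hippocampus.

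The members with the smallest p in each of these regions were small differences. In prefrontal cortex EEF1AKMT1, a lysine methyltransferase of eEF1A, had 3040.2, 3248.5 and 4143 in HT animals, against 2049.9, 2609.8 and 3519 in OvH animals, a log2 difference of 0.35 ± 0.11 with an unadjusted limma p of 0.00826 and an adjusted p of 1.0. The log2 differences of EIF5B, which joins the ribosomal subunits, and EIF2AK1, the heme-regulated eIF2 kinase, were 0.29 ± 0.12 and 0.26 ± 0.11 there. For these 3 genes all 7 HT animals were above the OvH median, though the groups overlapped. In occipital cortex the log2 differences of EIF3L, a subunit of eIF3, EIF4G2, a scaffold that does not bind eIF4E, and EIF2B4, the delta subunit of eIF2B, were -0.22 ± 0.10, 0.19 ± 0.11 and -0.19 ± 0.11. In hippocampus EIF1B had 4888, 5445 and 6462 in HT animals, against 5489, 6699 and 8381 in OvH animals, a log2 difference of -0.28 ± 0.12. Without animals 30 and 43 it was -0.22, that of EIF3L was -0.30 in place of -0.19, and still 0 members were called. Choroid plexus markers also stood apart in hippocampus, with sums of 1468000 in HT animal 40 and 1329000 in OvH animal 33 against at most 49890 in the others, and without these animals 0 members were called. EIF1AY was tested in hippocampus only because of the libraries labelled 30 and 43; its level was at most 0.788 in HT animals.

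The difference of the HT effect between amygdala and the mean of the other regions was tested within animals for the 50 members with matching levels. By limma 0 of 50 were called, against 0.0% of 13520 genes, and 13 members (26%) had an unadjusted p under 0.05, against 22.8% of all genes. The smallest adjusted p was 0.0609, shared by EIF2AK2, whose difference of log2 differences was -0.79 ± 0.16, and EIF1B, at 0.47 ± 0.11. EEF1B2 followed at 1.29 ± 0.35 (limma adjusted p = 0.0619). The count depended on single animals and on the regions set against the amygdala. Without animal 39, 6 members were called more positive in amygdala, against 7.05% of all genes, and 2 more negative, against 1.53%. EEF1B2 then stood at 1.52 (limma adjusted p = 0.0116), EIF1B at 0.50 (0.0183) and EIF2AK2 at -0.84 (0.0104). Without animals 30, 31, 32 and 40 in turn, 4, 4, 3 and 3 members were called more positive and 1, 2, 1 and 2 more negative. These counts have no share of all genes beside them and do not set the members apart from other genes. Against prefrontal cortex alone EEF1B2, EEF1A1 and EEF1G were more positive (against 5.17% of all genes) and EIF4H more negative (against 1.93%), while without animals 30 and 43 no member was called.

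The regions were then compared with each other within animals, leaving the amygdala out because of its identifiers. In occipital cortex, 20 of 49 members were called higher than in prefrontal cortex (40.8%), against 21.2% of 13472 genes, and 6 were called lower (12.2%), against 29.6%. The median log2 difference was 0.14 over the members and -0.05 over all genes. All 10 genes of the eIF2 and eIF2B group were among those called higher, by 0.20 to 0.44. Summed myelin markers had a lowest, median and highest of 189700, 314250 and 650900 in occipital cortex, against 148900, 235800 and 629000 in prefrontal cortex, and summed neuronal markers 639200, 795350 and 854400, against 481500, 728350 and 800500. The part of these shifts in the regional differences was not tested. The 10 genes are the 3 subunits of eIF2, the 5 subunits of eIF2B, and EIF2A and EIF2D, which also bind initiator tRNA.

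EIF2B2, the beta subunit of eIF2B, had a lowest, median and highest level of 3029, 3471 and 4434 in occipital cortex, against 2222, 2572 and 3009 in prefrontal cortex (n = 14 animals each). It was higher in occipital cortex in all 14 animals, and the 2 sets of values did not overlap. The log2 difference was 0.44 ± 0.06 (limma adjusted p = 1.1e-05). EIF2B5 had 6142, 6833 and 7983 in occipital cortex and 4493.5, 4954 and 6480.2 in prefrontal cortex, and was higher in 13 of 14 animals by 0.42 ± 0.07. Within single animals, the number of the 10 genes that were higher in occipital cortex was 10 in 7 animals and at least 5 in the rest. The occipital library of HT animal 40 was the highest of its group for 26 of 49 members, and without that animal 9 of the 10 genes were called. When totals were made equal or the animal was not used as a block, 8 of the 10 genes remained called, and leaving out 1 animal at a time left 8 to 10. Within HT animals alone and within OvH animals alone 3 of the 10 were called, with all 10 higher in sign in either group.

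**Figure D5:**
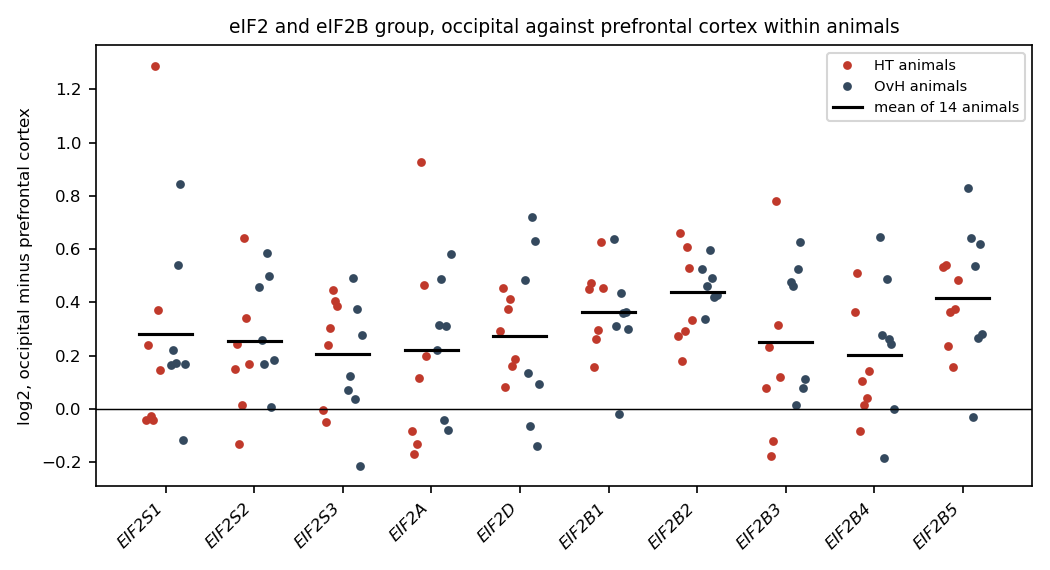
The log2 level in occipital cortex minus that in prefrontal cortex for the 10 eIF2 and eIF2B genes, 1 point per animal, HT left of OvH, with a line at the mean of 14 animals. The means lie between 0.20 and 0.44, and for EIF2B2 every animal is above 0.

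The largest positive difference between these regions was in EIF4A3, the helicase of the exon junction complex. It had 4189, 5349 and 6273 in occipital cortex and 2458, 3265.5 and 4319 in prefrontal cortex. All 14 animals were higher in occipital cortex, by a log2 difference of 0.68 ± 0.07 (limma adjusted p = 3.03e-07). EIF4A1, the main eIF4A of dividing cells, was also higher in all 14 animals, by 0.46 ± 0.08. EIF3I, a WD-repeat subunit of eIF3, was higher in all 14 animals by 0.41 ± 0.07. The 6 genes called lower were EIF2AK2 (-0.74 ± 0.18), EIF4EBP2 (-0.55 ± 0.22), EEF2K (-0.49 ± 0.09), EIF4EBP3 (-0.43 ± 0.10), EIF1AD (-0.34 ± 0.09) and EEF1AKMT1 (-0.21 ± 0.08). By role, that was 1 of 3 eIF2 kinases and 2 of 4 regulators of eIF4E. EIF2AK2 had 189, 281.5 and 564 in occipital cortex, against 193, 608 and 819.75 in prefrontal cortex. These values overlapped widely, with the occipital cortex lower in 12 of 14 animals.

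In hippocampus, 11 of 50 members were called higher than in prefrontal cortex (22%), against 21.2% of 13514 genes, and 5 were called lower (10%), against 23.2%. The differences were led by EIF5B (0.51 ± 0.11), EIF4A3 (0.47 ± 0.09), EIF4A1 (0.46 ± 0.09) and EIF3C (0.40 ± 0.13). EIF4EBP3 (-0.61 ± 0.09), EIF4EBP2 (-0.58 ± 0.21), EEF2 (-0.29 ± 0.10) and EIF4E2 (-0.25 ± 0.07), a cap-binding repressor, were lower. EIF4A3 had 2835, 4736 and 5516 in hippocampus and 2458, 3265.5 and 4319 in prefrontal cortex, and the lowest hippocampus value was that of the library labelled animal 30. Without animals 30 and 43, 13 members were called higher (26.5%, against 26.3% of all genes) and 8 lower (16.3%, against 28.4%). The log2 differences were then 0.58 for EIF5B, 0.57 for EIF4A3, 0.56 for EIF4A1, 0.55 for EIF3C, -0.72 for EIF4EBP3, -0.76 for EIF4EBP2 and -0.30 for EIF4E2, all still called, while EEF2 stood at -0.23 (limma adjusted p = 0.055).

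Against occipital cortex, 4 of 50 members were called higher in hippocampus (8%), against 24.3% of 13519 genes, and 10 were called lower (20%), against 19.5%. The 4 were EEF2K (0.57 ± 0.10, higher in all 14 animals), EIF3B (0.38 ± 0.12), EEF2KMT (0.32 ± 0.12) and EEF1AKMT1 (0.27 ± 0.08). The lower ones were led by EIF4A2 (-0.44 ± 0.12), EIF4E2 (-0.44 ± 0.06), EEF1AKMT2 (-0.42 ± 0.15) and EIF2S3 (-0.40 ± 0.07), the gamma subunit of eIF2, and 5 of the 10 eIF2 and eIF2B genes were among them. EIF2S3 had 2421, 3086 and 3774 in hippocampus, against 3249.8, 3957 and 4688 in occipital cortex, and was lower in all 14 animals. Without animals 30 and 43, 9 members were called higher (18.4%, against 28.1% of all genes) and 14 lower (28.6%, against 24.1%). The log2 differences were then 0.62 for EEF2K, 0.53 for EIF3B, -0.55 for EIF4A2, -0.53 for EEF1AKMT2 and -0.42 for EIF2S3, and all 8 genes named in this comparison were still called.

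The median translation factor varied less between animals than the median of all genes tested, a comparison that was not matched for level. The median within-group SD of a member on the log2 scale was 0.26 in amygdala, 0.28 in hippocampus, 0.30 in the occipital and 0.21 in the prefrontal cortex, against 0.40, 0.45, 0.40 and 0.33 for all genes tested. EIF4ENIF1, which carries eIF4E into the nucleus, varied least in amygdala, with an SD of 0.14. EIF4EBP2 varied most in amygdala, with an SD of 0.86, and in both cortical regions. Its low values recurred in the same animals: HT animal 40 had 435 in amygdala, 561 in hippocampus, 437 in the occipital and 402 in the prefrontal cortex, and OvH animal 32 had 458, 248, 581 and 298 in the same order of regions. These were the lowest values of each region except in hippocampus, where OvH animal 33 had 409. Its highest hippocampus values, 2971 and 2709, were those of the libraries labelled 30 and 43. EEF2K had its highest value in OvH animal 31 in every region, 3267, 4159, 3112 and 5287 in that order.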

How the data were processed

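The 4 brain regions of 14 macaques were profiled as stranded poly(A) mRNA libraries read on an Illumina HiSeq, per the labels' protocols. Trimmomatic, STAR 2.7.3a, edgeR 3.28.0 and the build Mmul_10 are named in the submitters' processing notes, without roles. The read counter, its strand setting and the annotation are not given in the sources used here. The deposited values are the authors' normalized read counts per Ensembl identifier, a linear signal: the upper quartile was 2818.94 in every library, and dividing by the value of 1 read gave whole numbers within 0.01 for 100.0% of values. These recovered reads came to 34.6 to 93.3 M (mega-reads) per library. Gene symbols came from the Ensembl macaque names in a reference table. Counting reads without molecular identifiers means that depth covers counting error only.

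Animals were grouped by the labelled treatment. HT minus OvH was tested within each region on log2(value + 1) in R 4.3.3, by limma 3.58.1 with its trend option, for genes with a mean of at least 10, with Benjamini-Hochberg adjustment over all genes tested in the region. Fold changes on this scale understate changes of low genes. Regions were compared in pairs by limma with the animal as a fixed block, over genes with matching levels. The difference of effects used each animal's amygdala minus the mean of its other regions. Only an alternative fit of HT minus OvH, with all regions at once, used the animal as a random block (consensus correlation 0.227). The labels number the animals, so libraries of an animal are paired. Mean correlations of same-animal deviations were 0.287 to 0.494 over region pairs, across genes with matching levels and a mean of at least 10. The comparison of each library with other animals used the 500 genes that vary most. No pair of libraries in a group agreed within sampling noise. The scripts were checked on simulated data. edgeR 4.0.16 and DESeq2 1.42.0 on recovered reads, other pseudocounts, filters, scaling to equal totals, a myelin covariate and leaving out animals were tried. The study gives separate animals as replicates.

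Genes named are the called members and those with the smallest p in the amygdala, the extremes of each role there, the 3 smallest p elsewhere and the 4 called extremes in each direction between regions; a few others were named for their values. The members and lists were chosen with earlier results of these data known. The leave-out of animals 30 and 43 in the comparisons between regions and of effects was chosen after seeing the data.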

Additional observations from a re-analysis of the deposited data

Results flagged for a closer look

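Single libraries stood far from the rest of their group for 7 of 64 groups of values looked at, where chance gives about 1 in 20. The amygdala library of OvH animal 32 was high for 5 of them. It had 6207 EEF1AKMT1 counts (next highest 3456), 2538 EIF1AD counts (next 1691), 12676 EIF1B counts (next 9888), 4372 EIF4EBP3 counts (next 3190.3) and 9003 EIF6 counts (next 6340.1). In amygdala of HT animal 37, EEF1A2 had 20087 counts, against 43439 for the next lowest HT animal. EIF1AY in hippocampus of HT animal 38 was listed at 0.788, the value of a single read, against 0.0 in the other 6 HT animals.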

How the results depend on the processing

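Signs held for the 6 called amygdala genes under every alternative run. The counts that follow are of members alone. The share of all genes called also changed between settings and is given above for only some of them. A changed count is therefore not by itself a result about the members. In amygdala, equal totals gave 1 member higher and 5 lower, edgeR 3 and 3, DESeq2 7 and 4, and the myelin covariate 4 and 0; leaving out 1 animal gave 2 to 9 higher and 0 to 2 lower. A fit of all regions with the animal as a replicate block tested 50 matched members there and called 4 higher (EEF1A1, EEF1B2, EIF3F and EIF3H) and 1 lower (EIF4H). For the difference of effects, prefrontal cortex alone gave 3 more positive and 1 more negative, equal totals 0 and 2, and leaving out 1 animal 0 to 6 and 0 to 2. Hippocampus against prefrontal cortex gave 0 higher and 1 lower in OvH animals alone, 8 lower without animals 30 and 43, and 3 to 7 lower leaving out 1 animal. Occipital against prefrontal cortex gave 6 higher and 3 lower in HT animals alone, 8 and 2 in OvH animals alone, and 3 lower with no replicate block. Hippocampus against occipital cortex gave 6 lower in HT animals alone, 0 higher and 2 lower in OvH animals alone, 9 higher without animals 30 and 43, and 3 to 7 higher leaving out 1 animal. Fewer animals enter the fits of a single treatment; otherwise the cause was not tested.

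Signs reversed in amygdala for uncalled members only, and equal totals turned 21 of 60. Not all of these members lay near 0 in the main fit, where EIF4EBP2 was at -0.25 and EIF6 at 0.18. With equal totals EEF1AKMT2 was at -0.10, EEF1AKMT1 at -0.12, EIF4EBP3 at -0.052 and EIF6 at -0.035. EEF1AKMT1 was at -0.062 by edgeR and -0.041 with the myelin covariate, where EIF4EBP2 was at 0.051. Leaving out 1 animal at a time, EEF1AKMT2 ran from -0.018 (without 32) to 0.22 (without 39), with -0.0015 without 36. EIF1AD ran from -0.13 (without 40) to 0.012 (without 32), with 0.0029 without 42. EIF4EBP2 ran from -0.53 (without 32) to 0.0069 (without 40), and EIF5A from -0.18 (without 35) to 0.024 (without 32). Depth was at least 34.6 M reads in each library, and libraries of a group differed by at least 35.6 times counting noise (chi-square per degree of freedom), so the 7 animals per group limit precision.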
